A study of Mus musculus with 51 samples.

Results

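The 10 genes Adh1, Adh5, Cat, Cyp2e1, Aldh2, Aldh1a1, Aldh3a2, Aldh9a1, Aldh7a1 and Acss2 encode enzymes that act on ethanol, on the acetaldehyde made from it, or on the acetate that follows. They were taken by symbol from the 24421 genes of the count tables, and all 10 were found. The questions were which preparation of the prefrontal cortex carried the RNA of each enzyme, and whether the level changed after chronic ethanol.

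RNA came from the medial prefrontal cortex of 17 adult male C57BL/6J mice, 8 control and 9 exposed to chronic intermittent ethanol vapor (CIE), and each mouse gave 3 libraries. Astrocytes were held on beads against the surface antigen ACSA2, microglia were held on CD11b beads from what the first beads left behind, and total homogenate was the small aliquot removed before dissociation and myelin removal. Mice of both groups sat in inhalation chambers for 16 h per day in 4 weekly cycles and were given pyrazole, an inhibitor of alcohol dehydrogenase, at 1 mmol/kg. CIE mice breathed ethanol vapor and were also injected with ethanol at 1.6 g/kg, whereas control mice breathed air and were injected with saline, so every library of either group came from a mouse that had received the inhibitor.

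Ethanol is oxidised to acetaldehyde by cytosolic alcohol dehydrogenases, by the microsomal cytochrome P450 CYP2E1 and by peroxisomal catalase, which uses hydrogen peroxide. Acetaldehyde is reactive and toxic and is oxidised to acetate, mainly by the mitochondrial enzyme ALDH2, with a part for cytosolic aldehyde dehydrogenases such as ALDH1A1. Acetate leaves the liver in the blood, and in brain cells acetyl-CoA synthetases such as ACSS2 turn it into acetyl-CoA. In the liver the alcohol dehydrogenase encoded by Adh1 does most of the work, while in the brain catalase and CYP2E1 are the enzymes usually named for local oxidation.

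The regions before 5 of the start sites are shown because these genes stood at the ends of the range of levels in control astrocytes, where Adh1 and Cyp2e1 were the lowest and Adh5, Cat and Acss2 were 3 of the 4 highest. Each is the 250 bases directly before the start given by RefSeq, on build GRCm38.p6 and on the strand of the gene, at chr3:138277335-138277584 (Adh1), chr7:140763569-140763818 (Cyp2e1), chr3:138442843-138443092 (Adh5), chr2:103485154-103485403 (Cat, minus strand) and chr2:155517793-155518042 (Acss2). Capitals mark a TATA box (TATAAA), a GC box (GGGCGG) or a CCAAT box (CCAAT), each searched on both strands, and no match overlapped another.
Adh1: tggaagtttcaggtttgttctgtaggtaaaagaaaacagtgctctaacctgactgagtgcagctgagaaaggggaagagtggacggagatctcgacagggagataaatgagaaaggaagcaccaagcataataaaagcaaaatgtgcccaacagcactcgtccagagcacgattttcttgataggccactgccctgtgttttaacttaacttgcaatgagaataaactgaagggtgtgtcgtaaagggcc
Cyp2e1: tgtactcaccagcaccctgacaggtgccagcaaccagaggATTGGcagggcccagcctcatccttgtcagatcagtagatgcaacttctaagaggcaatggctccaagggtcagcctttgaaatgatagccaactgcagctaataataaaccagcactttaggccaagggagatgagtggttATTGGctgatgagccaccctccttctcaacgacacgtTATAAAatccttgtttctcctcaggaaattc
Adh5: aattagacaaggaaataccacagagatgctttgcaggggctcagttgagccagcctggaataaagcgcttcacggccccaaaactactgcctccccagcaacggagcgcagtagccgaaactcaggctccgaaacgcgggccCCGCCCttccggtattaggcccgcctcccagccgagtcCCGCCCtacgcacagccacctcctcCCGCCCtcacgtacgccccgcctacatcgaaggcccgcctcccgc
Cat: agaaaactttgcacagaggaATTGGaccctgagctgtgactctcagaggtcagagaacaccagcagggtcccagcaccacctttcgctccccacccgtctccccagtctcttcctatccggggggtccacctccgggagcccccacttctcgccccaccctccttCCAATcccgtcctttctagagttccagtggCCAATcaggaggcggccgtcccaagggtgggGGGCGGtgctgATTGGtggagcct
Acss2: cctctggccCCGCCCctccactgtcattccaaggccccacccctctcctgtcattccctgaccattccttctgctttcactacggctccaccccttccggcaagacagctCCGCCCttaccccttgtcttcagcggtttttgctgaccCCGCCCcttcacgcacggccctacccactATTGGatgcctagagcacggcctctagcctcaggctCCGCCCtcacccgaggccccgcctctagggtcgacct
The Adh1 region held 5 CpG pairs and none of the 3 motifs, and that of Cyp2e1 held 2 CpG pairs, 1 TATA box and 2 CCAAT boxes. The Adh5 region held 21 CpG pairs and 3 GC boxes, that of Cat 9 CpG pairs, 1 GC box and 4 CCAAT boxes, and that of Acss2 13 CpG pairs, 4 GC boxes and 1 CCAAT box. Of all 32851 RefSeq regions of this length, 12.4% held the TATA box, 32.7% the GC box and 33.8% the CCAAT box, and the median number of CpG pairs was 6. These matches describe the letters only. Start sites were taken from RefSeq for 8 of the 10 genes, all but Aldh2 and Aldh7a1. The lack of a region for Aldh2 and Aldh7a1 does not show that RefSeq gives no start for them. For Adh5 RefSeq gave a second start upstream of the one shown.

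Astrocyte libraries held 2082289 to 10041788 counts assigned to genes, microglia libraries 571878 to 6026453 and homogenate libraries 5042926 to 15594154, so low levels were measured least precisely in microglia. In the control mice the summed level of 10 astrocyte markers in the astrocyte libraries was 2.29 times that in total homogenate, and the sum of 10 microglial markers in the microglia libraries was 39.3 times that in total homogenate. The astrocyte libraries also held 9.26 times the oligodendrocyte and 5.03 times the microglial marker sum of total homogenate, with the neuronal sum at 0.0152 times. Their neutrophil sum was at 4.07, endothelial at 3.81, mural and fibroblast at 3.45 and border macrophage and monocyte at 3.38 times. Their red blood cell sum was at 1.41 and the oligodendrocyte precursor sum at 1.04 times. In the microglia libraries the astrocyte marker sum was at 0.0899 times and the neutrophil marker sum at 34.3 times that of total homogenate. Border macrophage and monocyte markers were there at 12.5, endothelial at 2.47, oligodendrocyte at 2.11 and mural and fibroblast markers at 1.75 times. Red blood cell markers were at 0.688, oligodendrocyte precursor markers at 0.434 and neuronal markers at 0.022 times. A level in a preparation is therefore that of a mixture, and in such bulk samples fewer cells of a type and less RNA per cell cannot be told apart.

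**Figure D1:**
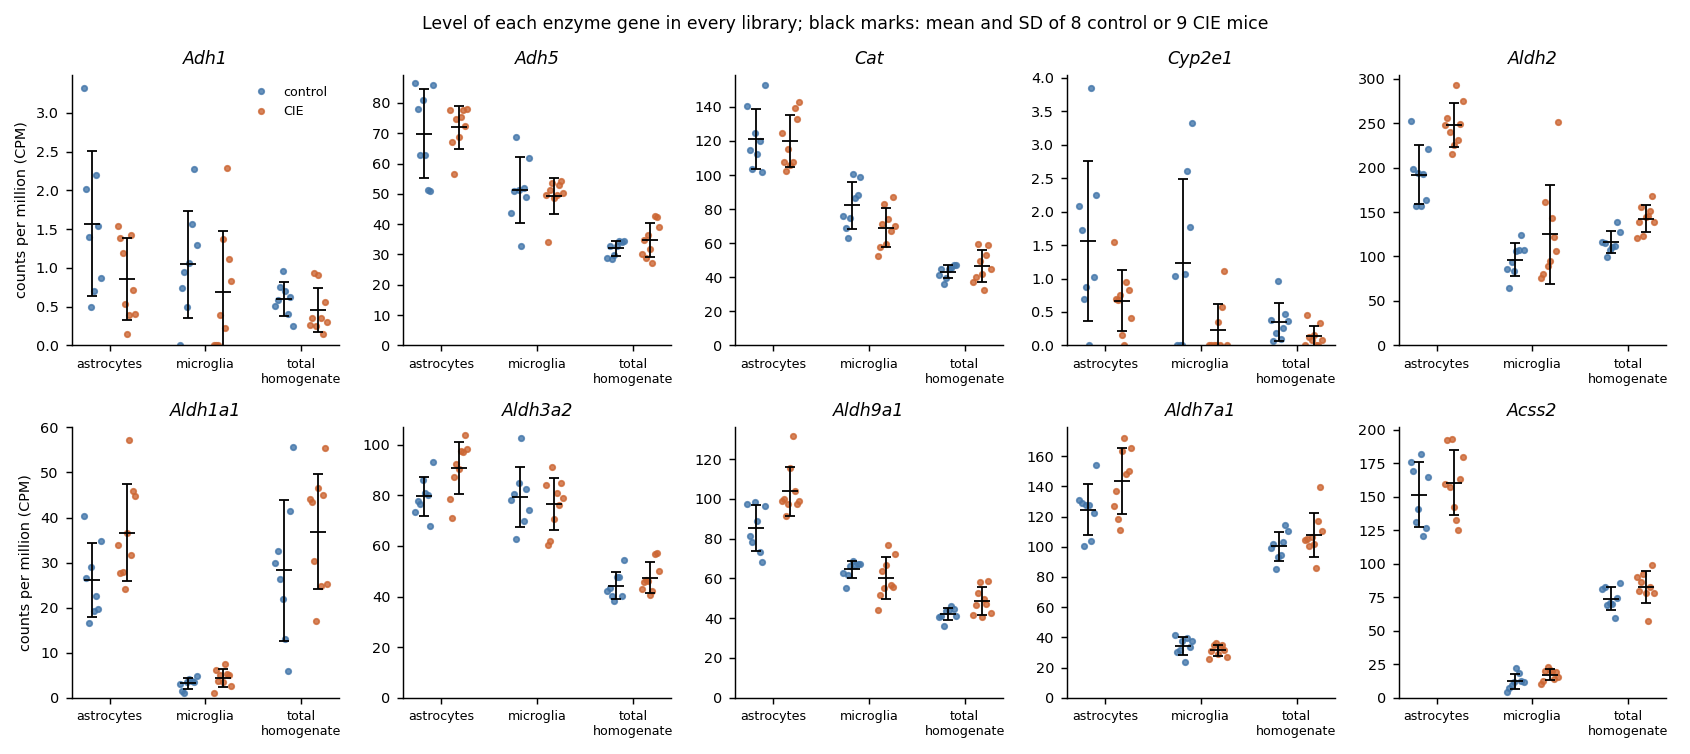
Level of each of the 10 genes in CPM, counts scaled to a common library size (vertical axis, from 0, a scale of its own for each gene), for the 3 preparations of control (blue) and CIE mice (orange). Each point is the library of 1 mouse, and black marks give the mean and SD of 8 control or 9 CIE mice. Acss2, Aldh7a1 and Aldh1a1 stood low in microglia, and Aldh2 of the CIE mice stood above the control median in all 9 astrocyte and all 9 homogenate libraries.

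On GRCm38 the genes span chr2:103453849-103485160 (Cat, minus strand), chr3:138443093-138455499 (Adh5), chr3:138260991-138290698 (Adh1), chr7:140763739-140774987 (Cyp2e1), chr5:121566027-121593824 (Aldh2, minus strand), chr19:20492715-20643465 (Aldh1a1), chr11:61223417-61267464 (Aldh3a2, minus strand), chr1:167349991-167368532 (Aldh9a1), chr18:56509687-56572951 (Aldh7a1, minus strand) and chr2:155517948-155585724 (Acss2), and the counts cover their exons.

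The enzymes of the first step differed widely in level. Levels of different genes were compared as CPM per kilobase of exon. Cat, which encodes catalase, stood at 46.4 ± 6.81 CPM per kilobase (SD, n = 8) in control astrocytes, 31.4 ± 5.26 in control microglia and 16.6 ± 1.53 in control total homogenate. Adh5, the class III alcohol dehydrogenase, works chiefly on formaldehyde bound to glutathione and on nitrosoglutathione, and only weakly on ethanol. It stood at 43.5 ± 9.2, 32 ± 6.73 and 20 ± 1.57 in the same order. Adh1 stood at 1.05 ± 0.626 CPM per kilobase in control astrocytes, 0.702 ± 0.462 in microglia and 0.401 ± 0.147 in total homogenate. Cyp2e1 stood at 0.851 ± 0.648, 0.666 ± 0.687 and 0.19 ± 0.154. The means of Adh1 and Cyp2e1 were thus below those of 8 of the 10 genes in every preparation. Their ranges had no overlap with the next gene in astrocytes and total homogenate. In microglia the ranges of both overlapped those of Aldh1a1 and Acss2.

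Among the enzymes of the second step, Aldh2 stood at 46.2 ± 8 CPM per kilobase (SD, n = 8) in control astrocytes, 23.2 ± 4.44 in microglia and 27.9 ± 3 in total homogenate, where it was the highest of the 10. Aldh9a1, which oxidises amino aldehydes of carnitine and polyamine metabolism, stood at 30.1 ± 4.12, 22.8 ± 1.55 and 14.9 ± 1.12. Aldh3a2, the fatty aldehyde dehydrogenase of the endoplasmic reticulum, stood at 15 ± 1.44, 15 ± 2.23 and 8.32 ± 1.01. Aldh7a1, an enzyme of lysine breakdown, stood at 29.3 ± 3.96, 8.08 ± 1.4 and 23.6 ± 2.2, and Aldh1a1, which also makes retinoic acid from retinaldehyde, at 10.9 ± 3.44, 1.32 ± 0.548 and 11.8 ± 6.52. Acss2, the acetyl-CoA synthetase of the cytosol and nucleus, stood at 39.7 ± 6.35 CPM per kilobase in control astrocytes, 3.2 ± 1.51 in microglia and 19.4 ± 2.25 in total homogenate.

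In control astrocytes the order of the levels per kilobase was Cat, Aldh2, Adh5, Acss2, Aldh9a1, Aldh7a1, Aldh3a2, Aldh1a1, Adh1 and Cyp2e1. The ranges of neighbours did not overlap in only 2 places of that order, between Aldh7a1 and Aldh3a2 and between Aldh1a1 and Adh1, and Cat was above Aldh2 in 4 of 8 mice. In control microglia the order was Adh5, Cat, Aldh2, Aldh9a1, Aldh3a2, Aldh7a1, Acss2, Aldh1a1, Adh1 and Cyp2e1, and ranges of neighbours were apart between Aldh9a1 and Aldh3a2 and between Aldh3a2 and Aldh7a1. In control total homogenate Aldh2 and Aldh7a1 led, each above the next gene in 8 of 8 mice but with overlapping ranges, followed by Adh5, Acss2, Cat, Aldh9a1, Aldh1a1, Aldh3a2, Adh1 and Cyp2e1, with ranges apart only between Aldh3a2 and Adh1. Acss2 therefore went from the fourth place in astrocytes to the seventh in microglia.

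**Figure D2:**
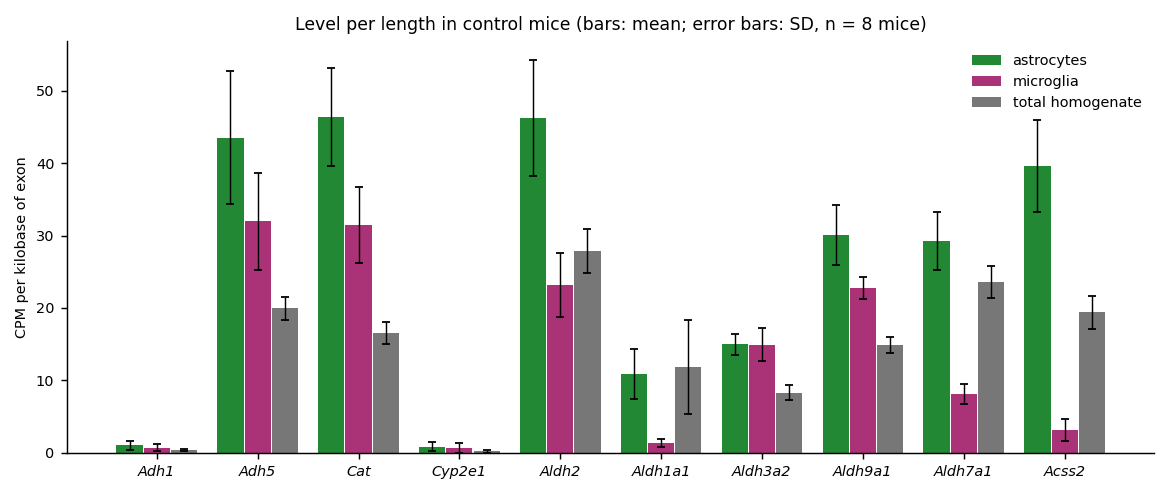
Mean level per length (CPM per kilobase of exon, vertical axis, from 0) of the 10 genes in control astrocytes (green), microglia (purple) and total homogenate (grey), with error bars of 1 SD over 8 mice. Cat and Aldh2 reached 46.4 and 46.2 in astrocytes, Acss2 was 39.7 in astrocytes and 3.2 in microglia, and Adh1 and Cyp2e1 stayed at or below 1.05.

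The preparations were compared in the 24 control libraries with edgeR's quasi-likelihood test, with the adjusted p taken over all 13672 genes tested. Of the 8 members that passed the expression filter, 7 were higher in astrocytes than in total homogenate and none was lower, in a comparison where 78.8% of all genes were called, 41% as higher and 37.8% as lower. The median log2 fold change of the 8 was 1.01 against 0.05 for all genes tested. Against total homogenate, microglia had 4 members higher and 3 lower (84.4% of all genes called, 39.8% higher and 44.6% lower), with a median of 0.22 against -0.09 for all genes. Between astrocytes and microglia 7 of 8 were higher in astrocytes and none lower (71.9% of all genes called, 36.6% as higher and 35.3% as lower), with a median of 0.80 against 0.02, and with scaling by library size alone the split of all genes moved from 5010 higher and 4827 lower to 6464 and 3416. With calls this frequent the directions and sizes tell more than the count of calls. Aldh1a1 was 1 of the 3 called lower in microglia and of the 7 called higher in astrocytes than in microglia. It was below the expression filter in microglia alone and passed here through astrocytes and total homogenate, where it was higher. DESeq2, run without edgeR's expression filter, called 9 members against total homogenate in astrocytes and 9 in microglia, and 7 between the cell preparations. The shares above are those of edgeR, and DESeq2's shares over all genes are not given here, so nothing is read from these counts. Adh1 and Cyp2e1, both below the edgeR filter, were among those higher in astrocytes (1.29 and 2.18 on the log2 scale, DESeq2 adjusted p = 0.0034 and 0.0015), from a few counts per library and with astrocytes above total homogenate in 7 of 8 and 6 of 8 control mice. In microglia DESeq2 called Cyp2e1 (1.94, adjusted p = 0.00863), which was above total homogenate in 5 of 8 mice, and did not call Adh1 (0.97, adjusted p = 0.067).

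Cat had the largest astrocyte excess over total homogenate of the 8 tested members. It ranged from 102 to 153 CPM (median 117) in control astrocytes, from 62.9 to 101 (median 81.3) in control microglia and from 35.9 to 47.4 (median 44.8) in control total homogenate. The 3 preparations did not overlap. Its log2 fold change was 1.56 (standard error 0.0931, edgeR adjusted p = 4.08e-15) for astrocytes against total homogenate, 0.97 (standard error 0.0964) for microglia against total homogenate and 0.59 (standard error 0.0954) for astrocytes against microglia. Counting CIE mice too, Cat was highest in astrocytes and lowest in total homogenate in 17 of 17 mice.

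Adh5 showed the same order with smaller gaps. It ranged from 50.9 to 86.4 CPM (median 70.4) in control astrocytes, from 32.9 to 68.6 (median 51.1) in microglia and from 28.6 to 34.5 (median 32.8) in total homogenate. Astrocytes and total homogenate did not overlap, while microglia overlapped both. Log2 fold changes were 1.20 (standard error 0.118) and 0.74 (standard error 0.126) for astrocytes and microglia against total homogenate, and 0.47 (standard error 0.125, edgeR adjusted p = 0.0016) between the cell preparations, with astrocytes higher in 6 of 8 control mice.

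Aldh2, the main acetaldehyde dehydrogenase, ranged from 157 to 252 CPM (median 193) in control astrocytes, from 64.3 to 124 (median 100) in control microglia and from 99.1 to 139 (median 113) in control total homogenate. Astrocytes overlapped neither of the others. On the log2 scale the difference was 0.80 (standard error 0.105) against total homogenate and 1.02 (standard error 0.11) against microglia, both called. Microglia were below total homogenate in 8 of 8 control mice, but the log2 fold change of -0.22 (standard error 0.109, edgeR adjusted p = 0.0684) did not pass the threshold. That difference was called without mouse 19, 20, 22, 35, 36 or 37, where the log2 fold change lay between -0.29 and -0.33, and also with RLE scaling, which moved the median of all genes in this comparison by -0.11, with no expression filter, by DESeq2 and with library size alone (adjusted p = 0.0109, 0.0091, 0.0071 and 0.00268), and it was not called without mouse 03 or 05.

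Aldh3a2 and Aldh9a1, like Cat and Adh5, were higher in both cell preparations than in total homogenate. Aldh3a2 ranged from 67.9 to 93.2 CPM (median 79.1) in control astrocytes, from 62.9 to 103 (median 79.4) in microglia and from 38.4 to 54.6 (median 42.7) in total homogenate. The cell preparations overlapped fully, and their log2 difference was 0.05 (95% interval -0.15 to 0.24, edgeR adjusted p = 0.667). With scaling by library size alone, which moved the median of all genes in this comparison by 0.29, it was 0.35 (adjusted p = 0.00187). Aldh9a1 ranged from 68.1 to 98.6 CPM in astrocytes, from 55.4 to 68.9 in microglia and from 36.1 to 46.3 in total homogenate, and its log2 fold change was 1.09 (standard error 0.0802) for astrocytes and 0.66 (standard error 0.0845) for microglia against total homogenate. Between the cell preparations Aldh9a1 was higher in astrocytes by 0.44 (standard error 0.0842, edgeR adjusted p = 3.65e-05), in 8 of 8 control mice.

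Aldh7a1, Aldh1a1 and Acss2 were the members that fell in microglia. Aldh7a1 ranged from 100 to 154 CPM (median 128) in control astrocytes, from 23.3 to 41.7 (median 35.6) in microglia and from 85.5 to 114 (median 100) in total homogenate. Microglia stood apart from both others, and the log2 fold change against total homogenate was -1.49 (standard error 0.104, edgeR adjusted p = 8.82e-14). The protein-coding gene Phax overlaps an exon of Aldh7a1 on the opposite strand. Acss2 ranged from 120 to 182 CPM (median 153) in control astrocytes, from 4.17 to 22.3 (median 11.7) in microglia and from 59.5 to 85.3 (median 72.3) in total homogenate. None of the 3 preparations overlapped another, and Acss2 had the largest gap of the 8 tested members between the cell preparations, which was 3.66 on the log2 scale (standard error 0.161, adjusted p = 1.26e-17).

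Aldh1a1 was the only tested member that was not higher in astrocytes than in total homogenate. It ranged from 16.7 to 40.3 CPM (median 24.6) in control astrocytes, from 0.953 to 4.81 (median 3.51) in microglia and from 5.91 to 55.6 (median 28.1) in total homogenate. The homogenate libraries spread over the whole range of the astrocytes, and the log2 difference was -0.04 (95% interval -0.60 to 0.52, edgeR adjusted p = 0.899), with the sign turning to 0.04 under scaling by library size alone and to 0.11 with a replicate block for the mouse. Against microglia astrocytes were higher by 2.92 (standard error 0.419, adjusted p = 4.1e-07). Aldh1a1 had 64 counts over the 8 control microglia libraries and was below the expression filter in microglia alone. It entered this fit through astrocytes and total homogenate, where it was higher, so nothing is read from the call. Aldh1a1 has a close paralog, Aldh1a7, which stood at 2.85 ± 0.958 CPM (SD, n = 8) in control astrocytes, and reads shared by the pair could have been lost or split in counting.

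The low levels of these 3 genes in microglia can be set beside the cell markers. The mean CPM in control microglia was 0.276 times that in control astrocytes for Aldh7a1, 0.121 times for Aldh1a1 and 0.0806 times for Acss2, and the sum of the 10 astrocyte markers was at 0.0392 times. The oligodendrocyte sum was at 0.228, the oligodendrocyte precursor sum at 0.418 and the red blood cell sum at 0.489 times. The mural and fibroblast sum was at 0.507 and the endothelial sum at 0.65 times. The neuronal, neutrophil, border macrophage and monocyte, and microglial sums were higher in microglia. The part of RNA of these cell types in the values of these genes was not tested.

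**Figure D3:**
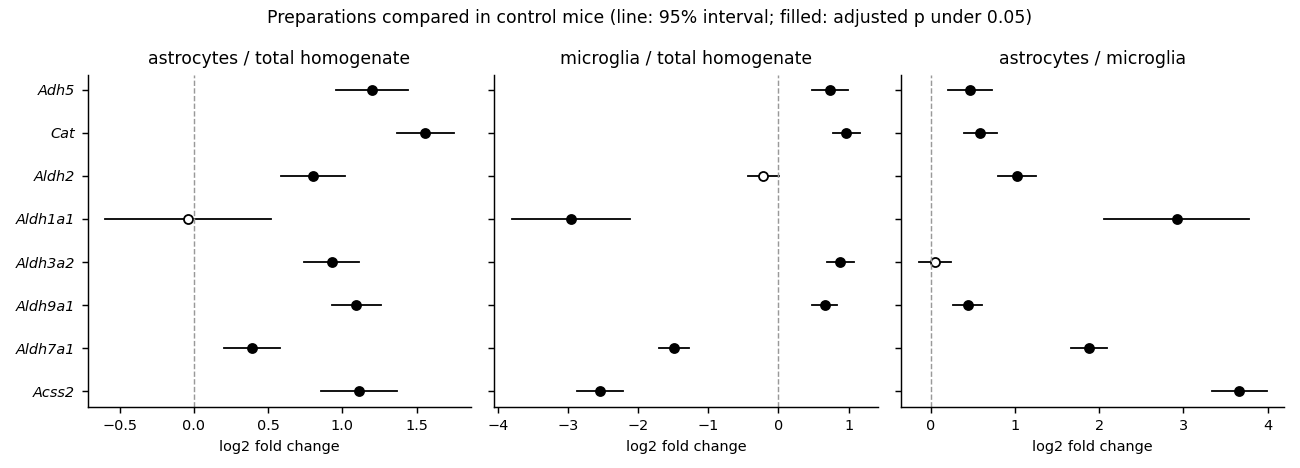
Log2 fold change (horizontal axis, a scale of its own in each panel) of the 8 tested members between preparations of the control mice, for astrocytes against total homogenate, microglia against total homogenate and astrocytes against microglia. Circles are the estimates from 24 libraries, filled where the adjusted p was under 0.05, lines are 95% intervals, and the dashed line marks no difference. Only Aldh1a1 in the first panel, Aldh2 in the second and Aldh3a2 in the third are open.

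The counts of the wider lists stand beside calls over all genes of 41% higher and 37.8% lower in astrocytes and 39.8% higher and 44.6% lower in microglia, each against total homogenate, and nothing is read from a count near these shares. Other aldehyde dehydrogenases came from a list of 16. Of 12 tested, 7 were higher and 4 lower in astrocytes than in total homogenate, with Aldh3b1 higher by 2.39 on the log2 scale (standard error 0.111), Aldh1l1, an astrocyte enzyme of folate metabolism, higher by 1.34 (standard error 0.156) and the mitochondrial Aldh1b1 lower (log2 fold change -3.21, standard error 0.321). Aldh1b1 stood at 0.231 ± 0.258 CPM per kilobase (SD, n = 8) in control astrocytes and was below the expression filter there. It entered this fit through total homogenate, at 2.26 ± 0.357, so nothing is read from its call. The counts of lower genes in these lists include others that passed the filter only through preparations where they were higher. In microglia 2 were higher and 7 lower than in total homogenate, with Aldh16a1 at 2.89 (standard error 0.157) and Aldh5a1, which ends the breakdown of GABA, at -3.30 (standard error 0.107). Among all 21 aldehyde dehydrogenases, Aldh2 made up 15.3 ± 1.43% (SD, n = 8) of the summed CPM per kilobase in control astrocytes, 17.7 ± 2.42% in microglia and 14.9 ± 0.636% in total homogenate. The share of Aldh1l1 was 17.4 ± 1.37% for astrocytes, 1.25 ± 0.692% for microglia and 11.7 ± 1.08% for total homogenate.

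Shares of all genes called against total homogenate, for the counts that follow, were again 41% higher and 37.8% lower (astrocytes) and 39.8% higher and 44.6% lower (microglia). Of 15 further alcohol dehydrogenases and aldehyde reductases found in the tables, 9 were tested, and 5 were higher and 1 lower in astrocytes than in total homogenate. Adhfe1, a mitochondrial hydroxyacid dehydrogenase, was higher in astrocytes than in microglia by 5.34 on the log2 scale (standard error 0.213). Adhfe1 was below the expression filter in microglia alone and entered this fit through astrocytes and total homogenate, where it was higher, so nothing is read from the call. The aldose reductase relative Akr1b10 was lower in astrocytes than in microglia (log2 fold change -1.16, standard error 0.134). Adh4 had a count of 0 in all 51 libraries. Of 15 tested acetate and acetyl-CoA enzymes 12 were higher and 2 lower in astrocytes than in total homogenate, and in microglia 6 were higher and 6 lower, which is close to those shares. Acss1, the mitochondrial counterpart of Acss2, was higher than in total homogenate both in astrocytes (1.89, standard error 0.0993) and in microglia (1.65, standard error 0.102), unlike Acss2, which was lower in microglia (log2 fold change -2.55, standard error 0.16).

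Of 21 tested peroxisomal partners of catalase, 14 were higher and 2 lower in astrocytes than in total homogenate (41% and 37.8% of all genes), and 7 were higher and 5 lower in microglia (39.8% and 44.6% of all genes). Between the cell preparations 8 were higher and 4 lower in astrocytes (36.6% and 35.3% of all genes), with the peroxisome proliferation factor Pex11a at 2.33 (standard error 0.226) among the higher. Like Adhfe1, Pex11a was below the expression filter in microglia alone and entered the fit through astrocytes and total homogenate, where it was higher. Of 13 tested cytochromes P450 and their electron donors 9 were higher and 2 lower in astrocytes than in total homogenate, and 3 were higher and 9 lower in microglia. Cyp4f14 was higher in astrocytes than in microglia by 5.99 (standard error 0.221). It was below the expression filter in microglia alone and entered this fit through astrocytes and total homogenate, where it was higher. Nothing is read from that call. Cyp46a1, the cholesterol hydroxylase of neurons, was lower in astrocytes (log2 fold change -2.85, standard error 0.122) and in microglia (-5.13, standard error 0.156) than in total homogenate. Of 13 tested genes of the non-oxidative list 9 were higher and 4 lower in astrocytes than in total homogenate, where 78.8% of all genes were called, among them the phospholipase Pld1 at 2.93 (standard error 0.147) and the brain sulfotransferase Sult4a1 at -5.91 (standard error 0.297).

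The response to chronic ethanol was tested within each preparation, 9 CIE against 8 control mice. Aldh2 was the 1 member called, in astrocytes, where it rose by about 1.29 times. It was 1 of 8 tested members, or 12.5%, in a comparison where 5.13% of 12878 genes were called, 2.91% as higher and 2.22% as lower. In microglia none of 7 tested members was called by edgeR (2 at an unadjusted p under 0.05, none by DESeq2), where 3.47% of all genes were called, 2.31% as higher and 1.15% as lower. In total homogenate none of 8 was called by edgeR (2 at an unadjusted p under 0.05, 1 by DESeq2), where 0.250% of all genes were called, 0.193% as higher and 0.0572% as lower. Medians of the log2 fold changes over the tested members were 0.18 (astrocytes), -0.02 (microglia) and 0.14 (total homogenate), beside 0.00, -0.01 and 0.01 for all genes tested.

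Control astrocytes held 157 to 252 CPM of Aldh2 (median 193) and those of CIE mice 215 to 293 (median 248), with means of 192 ± 33.2 (SD, n = 8) and 248 ± 24.5 (SD, n = 9). All 9 CIE libraries were above the control median and 3 were above the highest control, so the groups overlapped. The log2 fold change was 0.35 (standard error 0.101, 95% interval 0.14 to 0.56, edgeR adjusted p = 0.0469). The call stood close to the threshold: it held without mouse 03, 24, 37 or 39 and was lost without each of the 13 mice 05, 06, 08, 19, 20, 22, 23, 25, 26, 35, 36, 40 and 41, with log2 fold changes from 0.31 to 0.41 and adjusted p from 0.0136 to 0.101 over the 17 fits. DESeq2 gave 0.35 (adjusted p = 0.0125).

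Total homogenate held 99.1 to 139 CPM of Aldh2 (median 113) in the control group and 120 to 168 (median 144) after CIE. Again 9 of 9 CIE libraries were above the control median, and 5 were above the highest control. The estimated log2 change was 0.30 (standard error 0.0786, edgeR adjusted p = 0.129, unadjusted p = 0.00102), and DESeq2 called it (0.30, adjusted p = 0.0154).

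Microglia held 64.3 to 124 CPM of Aldh2 (median 100) in the control group and 76.3 to 252 (median 106) after CIE. The groups overlapped except for 3 CIE libraries, those of mouse 23 at 161, mouse 26 at 143 and mouse 41 at 252 CPM. The log2 fold change was 0.41 (standard error 0.197, edgeR adjusted p = 0.292), and 0.20 (adjusted p = 0.561) without mouse 41. The neutrophil marker sum in that library was 7171 CPM, against 765 to 2397 in the other CIE and 581 to 1181 in the control microglia, and the 3 CIE libraries with the highest Aldh2 were also the 3 with the highest neutrophil sum. The part of neutrophil RNA in these values was not tested.

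Within each of the ranges of mouse numbers 03 to 08, 19 to 26 and 35 to 41, the mean log2 level of Aldh2 was higher in CIE than in control mice in every preparation. The gaps were 0.17, 0.52 and 0.39 for astrocytes, 0.16, 0.42 and 0.27 for total homogenate and 0.08, 0.33 and 0.40 for microglia. What the ranges stand for is not given in the labels. Other cell markers moved beside Aldh2: all 10 oligodendrocyte markers had positive log2 fold changes in total homogenate (median 0.45, none called by edgeR, 4 at an unadjusted p under 0.05) and 8 of 10 in astrocytes (median 0.19, 1 called), while the median of the 10 astrocyte markers was -0.10 in total homogenate and -0.19 in astrocytes. The sum of the oligodendrocyte markers in control total homogenate was 1011 to 3708 CPM and in CIE 1624 to 4881 CPM, and in astrocytes 16973 to 23951 and 17600 to 24962 CPM. In total homogenate the neutrophil sum was 12.4 to 38.6 CPM in control and 12.8 to 761 CPM in CIE mice, and that of border macrophages and monocytes 7.77 to 47 and 8.34 to 167 CPM. In astrocytes the latter was 46.1 to 196 CPM (median 102) and 70.5 to 297 CPM (median 170), with 2 of its 6 tested markers called as higher. The part of these cells in the Aldh2 result was not tested. An unclassified gene model, Gm42879, overlaps an exon of Aldh2 on the opposite strand.

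**Figure D4:**
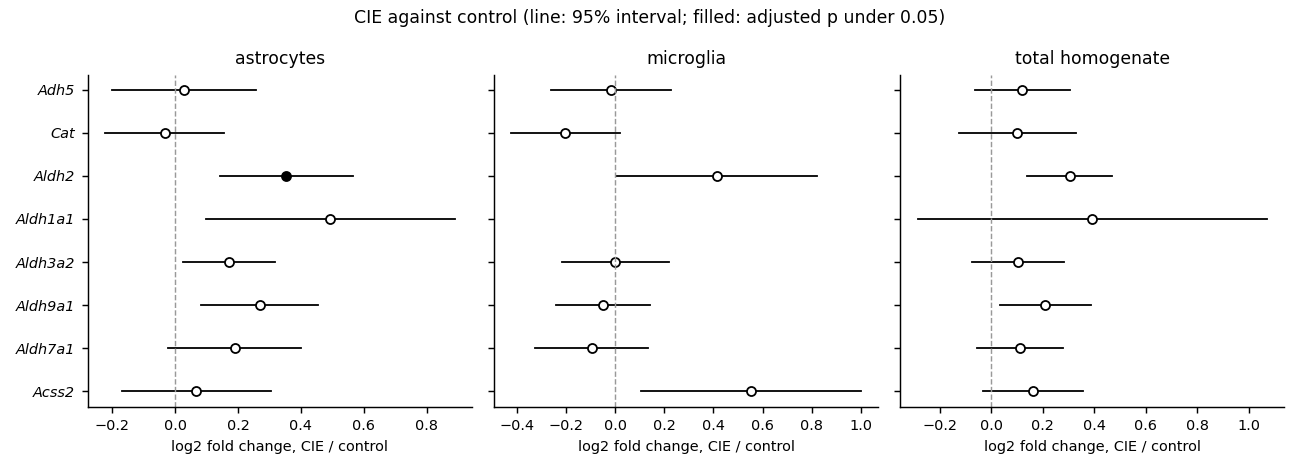
Log2 fold change of CIE against control (horizontal axis, a scale of its own in each panel) for the tested members in astrocytes, microglia and total homogenate. Circles are the estimates, filled where the adjusted p was under 0.05, lines are 95% intervals, and Aldh1a1 was below the expression filter in microglia. Aldh2 in astrocytes at 0.35 is the 1 filled circle, and all 8 estimates in total homogenate lie above 0.

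Aldh9a1, Aldh1a1 and Aldh3a2 had astrocyte intervals above 0 without passing the adjusted threshold. For Aldh9a1 the range was 68.1 to 98.6 CPM (median 85) without and 91.2 to 131 (median 99.1) with CIE, and there were 9 of 9 CIE libraries above the control median and 6 above the highest control. The log2 fold change was 0.27 (standard error 0.0887, edgeR adjusted p = 0.0826). Aldh1a1 ranged from 16.7 to 40.3 (median 24.6) and from 24.1 to 57.3 CPM (median 33.8), with 8 of 9 CIE libraries above the control median and an estimate of 0.49 on the log2 scale (standard error 0.189, adjusted p = 0.133). Aldh3a2 ranged from 67.9 to 93.2 (median 79.1) and from 71.2 to 104 CPM (median 92.4), and the estimate was 0.17 (standard error 0.0701, adjusted p = 0.16). For Aldh7a1 the log2 fold change was 0.19 (95% interval -0.02 to 0.40, adjusted p = 0.293).

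In total homogenate the log2 fold changes of the members lay between 0.10 and 0.39, with Aldh9a1 at 0.21 (standard error 0.0838, edgeR adjusted p = 0.411) and Aldh1a1 at 0.39 (95% interval -0.29 to 1.07, adjusted p = 0.794). In microglia Aldh3a2 (95% interval -0.22 to 0.22), Aldh9a1 (-0.24 to 0.14) and Aldh7a1 (-0.33 to 0.14) had intervals on both sides of 0. These intervals do not show that the levels were the same.

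Catalase and Adh5 gave no call in any preparation. Astrocytes held 102 to 153 CPM of Cat (median 117) in the control group and 102 to 143 (median 115) after CIE, which overlapped almost fully, with a log2 fold change of -0.03 (95% interval -0.22 to 0.16, edgeR adjusted p = 0.879). Microglia held 62.9 to 101 (median 81.3) in the control group and 52.4 to 87 (median 69.9) after CIE, with a log2 fold change of -0.20 (95% interval -0.42 to 0.02, adjusted p = 0.345). Adh5 had log2 fold changes of 0.03 for astrocytes (95% interval -0.20 to 0.26), -0.02 for microglia (-0.26 to 0.23) and 0.12 for total homogenate (-0.06 to 0.31).

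Acss2 had its largest estimate in microglia, where its level was lowest. It ranged from 4.17 to 22.3 CPM (median 11.7, from 4 to 65 counts per library) in control and from 10.5 to 23.1 (median 19) in CIE microglia. In 8 of 9 CIE libraries it was above the control median, and 1 was above the highest control. Its fitted log2 change was 0.55 (standard error 0.215, edgeR adjusted p = 0.172, from 0.0573 to 0.269 over the 17 fits without 1 mouse). The summed astrocyte markers in these libraries ranged from 561 to 1364 CPM in control and from 525 to 1969 in CIE mice. The summed microglial markers lay between 27617 and 38744 CPM in control and between 20253 and 26428 CPM in CIE mice, with no overlap, and the oligodendrocyte sum between 2115 and 7547 CPM and between 2349 and 9877 CPM, with means of 4700 and 6695 CPM. The part of these cells in the Acss2 value was not tested. In astrocytes the log2 fold change of Acss2 was 0.07 (95% interval -0.17 to 0.31) and in total homogenate 0.16 (-0.03 to 0.36). The models of Gss and Acss2os overlap exons of Acss2 on the opposite strand.

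Adh1 and Cyp2e1, both below the expression filter in every comparison, were tested over all 24310 splits of the mice (exact permutation test, two-sided) on log2(CPM + 0.1), with p adjusted over the 7 tests run. Cyp2e1 had 53 counts in all over 8 control and 39 over 9 CIE astrocyte libraries, for microglia 32 and 6, and for total homogenate 24 and 12. In microglia 3 of 8 control and 6 of 9 CIE libraries had no count, which allows up to 1.49 to 2.86 CPM in those control and 0.683 to 5.48 CPM in those CIE libraries (3 counts per library, counting error only). The means were 1.56 ± 1.19 CPM in control and 0.667 ± 0.455 in CIE astrocytes, for microglia 1.23 ± 1.26 and 0.226 ± 0.392, and for total homogenate 0.349 ± 0.283 and 0.136 ± 0.158. The mean log2 level of Cyp2e1 differed between CIE and control mice by -0.94, -1.70 and -0.96 in this order, and no adjusted p passed the threshold (exact permutation p = 0.194, 0.0858 and 0.0426, adjusted p = 0.271, 0.2 and 0.2).

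Adh1 had 51 counts in control and 49 in CIE astrocytes, for microglia 23 and 17, and for total homogenate 44 and 34. Levels were 1.57 ± 0.933 CPM in control and 0.86 ± 0.527 in CIE astrocytes, and the groups overlapped in each preparation. Differences of the mean log2 level were -0.83, -0.98 and -0.42 in astrocytes, microglia and total homogenate (exact permutation p = 0.0759, 0.232 and 0.176, adjusted p = 0.2, 0.271 and 0.271). Aldh1a1 in microglia, tested the same way, ranged from 0.953 to 4.81 CPM in control and from 0.954 to 7.51 CPM in CIE mice, with a difference of 0.43 (exact permutation p = 0.29, adjusted p = 0.29). An antisense gene model, Gm16559, overlaps an exon of Adh1.

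The difference of the response between preparations was tested in 1 model of all 51 libraries. No member was called by edgeR or by DESeq2 in any of the 3 contrasts, where 0.00695%, 0.828% and 0.529% of 14379 genes were called for astrocytes against total homogenate, microglia against total homogenate and astrocytes against microglia. At an unadjusted p under 0.05 there were 0, 2 and 3 of 8 members. The response of Aldh2 in astrocytes exceeded that in total homogenate by 0.06 (95% interval -0.34 to 0.45) and differed from that in microglia by -0.04 (interval -0.45 to 0.37). For Aldh9a1 the response in astrocytes was above that in microglia by 0.34 (95% interval 0.08 to 0.59, edgeR adjusted p = 0.276) and for Aldh7a1 by 0.31 (0.03 to 0.59, adjusted p = 0.393), while for Acss2 it was lower (-0.47, interval -0.89 to -0.05, adjusted p = 0.393). The astrocyte call of Aldh2 is thus not shown to be particular to astrocytes.

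The wider lists were chosen with earlier results of these data known, so the place of CIE calls among them is described only. None of the other aldehyde dehydrogenases was called by edgeR in any preparation (4 of 10, 2 of 8 and 2 of 13 at an unadjusted p under 0.05), nor was any further alcohol dehydrogenase or aldehyde reductase (1 of 9, 0 of 7 and 0 of 9). Of all genes tested 5.13%, 3.47% and 0.250% were called in astrocytes, microglia and total homogenate, and nothing is read from the unadjusted counts. Of 12 tested genes of non-oxidative ethanol metabolism 4 were called in astrocytes, 3 higher and 1 lower, beside 2.91% and 2.22% of all genes. Sult1a1, a phenol sulfotransferase, rose in every preparation. Astrocyte libraries held 10 to 22 CPM of Sult1a1 (median 13.6) in the control group against 18.7 to 90.1 (median 30.5) after CIE, or 1.5 on the log2 scale (standard error 0.316, edgeR adjusted p = 0.0112). The rise was 1.05 in microglia (standard error 0.214, adjusted p = 0.00993) and 1.52 for the homogenate (standard error 0.298, adjusted p = 0.03), where the call was lost without mouse 03, 08, 19, 20, 22, 23, 25, 35, 36 or 37 (adjusted p up to 0.082). The differences within the ranges of mouse numbers 03 to 08, 19 to 26 and 35 to 41 were 0.53, 2.09 and 0.77 in astrocytes.

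Ugt1a6a, a glucuronosyltransferase that shares exons with its gene cluster, so that its reads may not be told from those of its neighbours, rose in astrocytes from 4.16 to 6.25 CPM (median 4.65) in control to 4.92 to 31.4 (median 9.24) after CIE, or by 1.26 on the log2 scale (standard error 0.306, edgeR adjusted p = 0.0225). Lipe, the hormone-sensitive lipase, rose by 0.33 (standard error 0.0807, adjusted p = 0.0226, lost without mouse 24 or 36). Pld2, a phospholipase D of the enzyme family that can make phosphatidylethanol, fell from 63.5 to 119 CPM (median 93.1) to 58.2 to 89.2 CPM (median 61.9), which gives -0.53 on the log2 scale (standard error 0.109, adjusted p = 0.0102). Of the other lists Acacb, the acetyl-CoA carboxylase of the mitochondrial surface, rose in astrocytes by 0.80 (standard error 0.194, adjusted p = 0.0226) and in microglia by 0.95 (standard error 0.252, adjusted p = 0.0405). The microglial call of Acacb held only without mouse 06, 08, 22, 36 or 41, with adjusted p up to 0.0915 without each of the other 12. Pex2, a peroxisome assembly protein, rose in astrocytes by 0.33 (standard error 0.0863, adjusted p = 0.0312, lost without mouse 19, 22, 24, 26 or 36), and Cyp46a1 fell there (log2 fold change -0.38, standard error 0.0975, adjusted p = 0.03, lost without mouse 22, 25, 26 or 36).

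The genes whose levels followed those of a member most closely over the 51 libraries were found by the root mean square difference of centred log2(CPM + 0.1) among 12501 genes. For Aldh2 these were Rnf181 (0.256) and Hibadh (0.26), for Cat Ctnna1 (0.189) and Papss1 (0.207), for Adh5 Slu7 (0.217) and Ldah (0.224), and for Acss2 Mboat2 (0.325) and Pou3f3 (0.326). For Aldh3a2 they were Tmed10 (0.151) and Hadha (0.172), for Aldh9a1 Eci2 (0.196) and Rfc1 (0.203), for Aldh7a1 Rcn2 (0.242) and Ahcyl1 (0.26), and for Aldh1a1 Mpv17l (0.65) and Fam213a (0.654). The libraries share mice and preparations, so these values describe the pattern across preparations.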

How the data were processed

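The deposited values are whole counts per gene symbol with no normalization, made by the authors with HTSeq 0.6.1p1. Before that step came bcl2fastq 2.17 and cutadapt 1.8, alignment by STAR 2.5.0a (build mm10), and the filtering of duplicates in Picard 1.141. The annotation release and the strand setting of the counting are not given in the sources used here, although the library kit was directional. The authors left out 4 microglia samples and 3 outliers, which are not analysed here. The last 5 lines of each table, which name no gene, were set aside: reads in no gene were 11.3 to 41.0% and reads not uniquely aligned 8.30 to 40.6% of a table.

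Tests were edgeR's quasi-likelihood F tests (edgeR 4.0.16, R 4.3.3) after filterByExpr and TMM, with Benjamini-Hochberg adjustment over all genes tested and a threshold of 0.05. The study's methods name DESeq2, which was run as an alternative (1.42.0). A standard error is the log2 fold change over the square root of F. CPM used TMM factors over all 51 libraries, and length is the union of exons in GENCODE M21 on GRCm38. Tables and plots were made in Python 3.11.15 with pandas 2.3.3, numpy 2.4.6 and matplotlib 3.10.9. Scripts were tested on simulated data.

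Libraries with 1 mouse number come from 1 mouse. The median correlation of their deviations from group means was 0.132, 0.0322 and 0.144 for astrocytes with total homogenate, microglia with total homogenate and astrocytes with microglia, against -0.0242, -0.0112 and -0.0128 for other mice, and a replicate block was run as an alternative in comparisons between preparations. Mice are the replicates. The 95% intervals come from the fits and include the spread between mice, whereas the floors of libraries with no count cover counting error only. The reported fits between preparations and of the response differences had no term for the mouse. Their intervals and p therefore treat the libraries of 1 mouse as independent.

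Named were all 10 members, every gene of the other lists called under CIE (up to 4 per list and preparation) and genes among the 3 largest changes per list and direction between preparations. The members and lists were chosen with earlier results of these data known. The other alternatives were RLE scaling, library size alone, no expression filter, a covariate for the range of mouse numbers, a pseudocount of 1 in the permutation tests, and leaving out each mouse. In the lists, 2 symbols of alcohol dehydrogenases and aldehyde reductases were not found in the tables.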

Additional observations from a re-analysis of the deposited data

Results flagged for a closer look

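In 4 of 60 groups of libraries 1 library lay far from the others of its group, where chance gives about 1 in 20. Adh5 in CIE microglia was 34.2 CPM in mouse 08, below the next library at 48.5 CPM. Aldh2 in CIE microglia was 252 CPM in mouse 41, above the next at 161 CPM. Cyp2e1 in control total homogenate was 0.959 CPM in mouse 20, from 8 counts, above the next at 0.465 CPM. Acss2 in CIE total homogenate was 57.3 CPM in mouse 26, below the next at 77.9 CPM.

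The response of Cyp4f14 to CIE was larger in microglia than in total homogenate by 1.75 on the log2 scale (standard error 0.365, edgeR adjusted p = 0.0152 in the model of all 51 libraries), and the call was lost without mouse 25, 26 or 37. Its level was 0.658 ± 0.467 CPM in control and 2.2 ± 1.05 CPM in CIE microglia, from 11 and 48 counts in all, and 12.2 ± 1.72 and 12.7 ± 1.94 CPM in total homogenate. In microglia alone it was below the expression filter and was not tested, and it entered the model of all libraries through astrocytes and total homogenate, where it was higher. The difference therefore rests on 0 to 14 counts per microglia library.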

How the results depend on the processing

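Direction and side of the threshold were kept by 840 of the values recomputed without leaving out a mouse, 7 turned in sign, 6 passed the threshold that the reported fit missed and 3 (Cyb5a, Cyb5r3 and Pex5, with library size alone) missed one that it passed. The number of members called under CIE in total homogenate was 0, and 1 by DESeq2. Without each mouse in turn, the number called was 0 to 1 in astrocytes, and 7 to 8 for microglia against total homogenate. With all mice, 5.13% and 84.4% of all genes were called in these comparisons, and nothing is read from the counts.

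The replicate block, which pairs the preparations of a mouse, left 7 members called in each comparison between preparations. In the fits without it 78.8%, 84.4% and 71.9% of all genes were called (astrocytes and microglia against total homogenate, and astrocytes against microglia). The replicate block turned the sign for Aldh1a1 in astrocytes against total homogenate (0.108), for the response of Aldh1a1 in astrocytes minus microglia (-0.0935) and minus total homogenate (-0.0246), and for that of Aldh2 in astrocytes minus microglia (0.0238), none of them called. With no expression filter the last was 0.00105, with DESeq2 the Aldh1a1 response in astrocytes minus microglia was -0.00628, and with library size alone Aldh1a1 in astrocytes against total homogenate was 0.0382. The causes were not tested.

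Leaving out 1 mouse turned the sign of uncalled values only. Under CIE the ranges were -0.0335 to 0.0690 for Adh5 in astrocytes and -0.0726 to 0.0620 in microglia, -0.0269 to 0.0670 for Aldh3a2 in microglia and -0.0726 to 0.00705 for Cat in astrocytes. For Aldh1a1 in astrocytes against total homogenate it was -0.256 to 0.0372. For response differences they were -0.0103 to 0.146 (Adh5, astrocytes minus microglia), -0.0790 to 0.175, -0.0630 to 0.244 and -0.220 to 0.213 (Aldh1a1, astrocytes minus microglia, astrocytes minus total homogenate, microglia minus total homogenate) and -0.136 to 0.167, -0.0122 to 0.123 and -0.147 to 0.157 (Aldh2, same order).

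Over all genes the count called under CIE was 661, 373 and 35 (astrocytes, microglia, total homogenate), against 1158, 757 and 204 by DESeq2 and 1129, 775 and 81 with a covariate for the range of mouse numbers. Microglia libraries were the shallowest, which limits Adh1, Cyp2e1 and Aldh1a1 there.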
